A study of Drosophila melanogaster with 6 samples.

Results

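H2Bub regions in and near heterochromatin are the called regions of ubiquitylated histone H2B that lie beside the centromeres, on chromosome 4 or on the separately assembled heterochromatic scaffolds of the fly genome. They were chosen by position alone. A region of the deposited series-wide list, called the combined list here, was a member when its midpoint lay in the 2 Mb nearest the centromere of arm 2L, 3L, X (right end) or 3R (left end), or when it lay on chromosome 4, 2LHet, 3LHet, 3RHet, XHet or YHet. This gave 331 of 5802 combined regions, or 5.70%: 237 in the 4 proximal windows, 63 on chromosome 4 and 31 on the 5 Het scaffolds. The same places held 290, 305 and 281 regions in the lists of replicates 1, 2 and 3. The rest of arms 2L, 3L, X and 3R, called the distal arms, held 4301 combined regions and served as the comparison.

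Monoubiquitylation of histone H2B is placed on nucleosomes during transcription, in flies by the ubiquitin ligase Bre1, and marks the bodies of transcribed genes. Heterochromatin is compacted and repeat-rich. It carries methylated histone H3 and HP1, and it holds few genes, some of which are transcribed from within it. Chromosome 4 mixes both kinds of chromatin, with active genes set among repeats.

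The study immunoprecipitated chromatin from Oregon-R (Oregon-R-modENCODE) wild-type *Drosophila melanogaster* embryos, staged at 14 to 16 h, with the antibody NRO3 and sequenced 3 ChIP samples and 3 inputs. The protocol starts from whole embryos of a population cage, so each list averages over all embryonic cell types. The labels do not say whether the ChIP samples came from separate collections, so the p-values below reflect spread between samples that could be technical repeats. The lists hold region positions and a deposited score but no read counts. Depth was therefore unknown, and no counting interval could be given. A base outside every region is called uncalled below, which does not mean that it lacked H2Bub. No source used here says how reads that map to several places were handled. The part that mappability plays in any count on repeat-rich sequence was not tested.

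Over the 4 windows near the centromeres together, H2Bub regions were fewer, further apart and somewhat narrower than on the distal arms. The 3R window, taken up below, held more regions per Mb than the rest of 3R. Its median width differed from the rest of 3R by 72.3 ± 257 bp (SD, n = 3). The 4 windows held 26.1, 28.5 and 26.1 regions per Mb in replicates 1, 2 and 3, and the distal arms 43.3, 43.0 and 44.6. Windows minus distal arms was -16.7 ± 2.05 regions per Mb (SD, n = 3), negative in 3 of 3 replicates, and -9.48 among the higher-scoring 50% of regions. Keeping 50% of regions lowers every density, so that smaller difference does not show a weaker shortfall. Of window regions, 49.3%, 44.3% and 48.8% scored above their list's median, against 50.6%, 50.8% and 51.4% of distal regions. Median width was 2696, 3299.5 and 3243 bp in the windows, against 3136.5, 3631.5 and 3422.5 bp on the distal arms. The difference in median width, windows minus distal arms, was -317 ± 131 bp (SD, n = 3). It was -1051 bp among the higher-scoring 50% of regions, -553 bp without 3R and -157 bp in the combined list. The covered share, the bases inside regions as a percentage of the sequence, was 12.8% ± 1.13 in the windows and 27.1% ± 2.00 on the distal arms (SD, n = 3 each). All 3 differences had the same sign in every replicate. For each, the exact two-sided sign-flip permutation gave p = 0.25, the smallest that 3 replicates allow, and 0.375 after Benjamini-Hochberg adjustment over the 24 differences tested.

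Chromosome 4 held about as many regions per Mb as the distal arms and was still less covered. Its density was 43.6, 41.4 and 38.5 regions per Mb, and the difference from the distal arms was -2.45 ± 3.34 (SD, n = 3; exact sign-flip p = 0.5). Its covered share was 17.5%, 19.8% and 17.0%, and the difference from the distal arms was -8.95 ± 1.65 percentage points (SD, n = 3), negative in every replicate (exact sign-flip p = 0.25). Its median width, 3439 ± 286 bp, lay within the replicate spread of the distal value, 3397 ± 248 bp (SD, n = 3 each). The difference turned to -659 bp among the higher-scoring 50%, -431 bp from 2 kb and -735 bp after merging regions under 1 kb apart, each negative in 3 of 3 replicates (exact sign-flip p = 0.25). Regions of 20 kb or more were missing there, as they were in the 2L and 3L windows and on the Het scaffolds. Of the 63 combined regions of chromosome 4, 0 reached 20 kb, against 264 of 4301 on the distal arms. Those 264 regions were 6.14% of the distal regions and held 33.6% of the distal region bases. The widest region of chromosome 4 was 16017 bp, at 528994 to 545010.

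The 5 Het scaffolds, 5.99 Mb together, held 22, 21 and 20 regions in the 3 replicates. That was 3.50 ± 0.167 regions per Mb, against 43.6 ± 0.870 on the distal arms (SD, n = 3 each). Their regions were also narrow. Median width was 2072.5, 2340 and 2129.5 bp, and the difference from the distal arms was -1216 ± 132 bp (SD, n = 3), negative in 3 of 3 replicates. For density and for width the exact sign-flip p was 0.25. Among the higher-scoring 50% the density difference was -21.4 per Mb, against -40.1 over all regions, and the width difference was -3144 bp. Every density is lower in that subset, so the smaller density difference does not show a weaker shortfall. Of Het regions, 6, 5 and 4 (27.3%, 23.8% and 20.0%) scored above their list's median, against 50.6%, 50.8% and 51.4% of distal regions. The width difference in that subset thus rests on few Het regions, and its distal reference is cut on score as well. In the combined list 1 of 31 Het regions (3.23%) was at least 5 kb wide, against 37.0% of the distal regions. It was 5397 bp, on 3RHet.

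**Figure D1:**
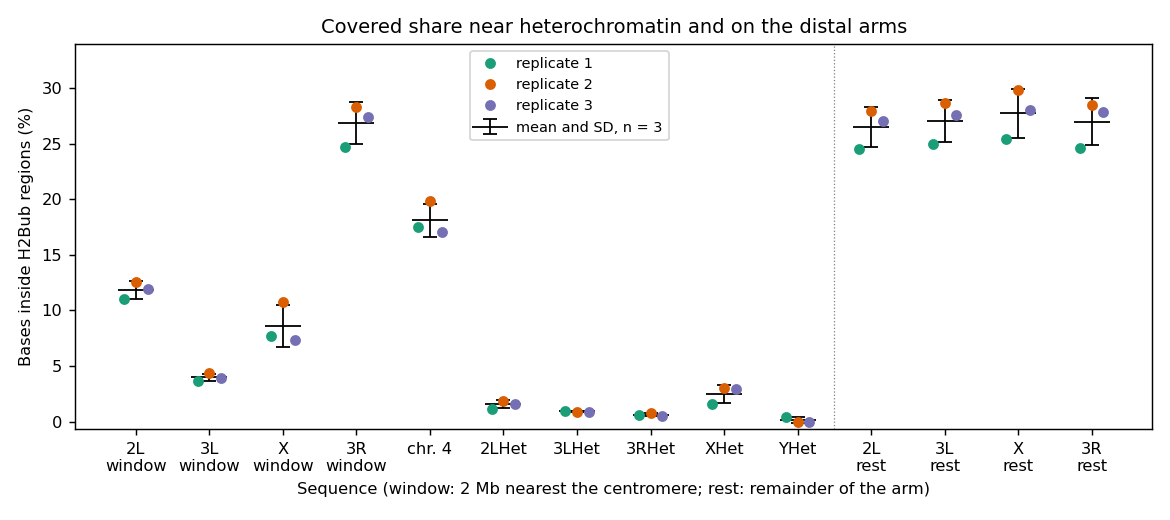
Bases inside H2Bub regions as a percentage of each sequence, with 1 point per replicate and the mean with its SD (n = 3). The 2L, 3L and X windows and the Het scaffolds lie below all 4 arm remainders on the right, chromosome 4 lies between them, and the 3R window overlaps the remainder of 3R.

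The 4 windows did not share 1 pattern. The 3R window held more regions per Mb than the rest of its arm, and the other windows held fewer. On 3R the window held 48.5, 51.5 and 51.5 regions per Mb, which exceeded the rest of that arm by 8.04 ± 1.26 (SD, n = 3), in 3 of 3 replicates. On 2L the window held 25.5, 25.0 and 25.0 regions per Mb, and the difference from the rest of the arm was -17.2 ± 0.447. On X it held 19.0, 25.5 and 17.5, a difference of -25.8 ± 5.71. On 3L it held 11.5, 12.0 and 10.5, a difference of -32.3 ± 1.99, and was the sparsest of the 4 in every replicate. The 3R difference minus the mean of the other three was 33.1 ± 2.58 regions per Mb (SD, n = 3; exact sign-flip p = 0.25). The covered share of the 3R window, 24.7%, 28.4% and 27.4%, differed from 24.6%, 28.5% and 27.9% on the rest of 3R by -0.152 ± 0.298 points (SD, n = 3; exact sign-flip p = 0.75). For covered share the contrast of 3R with the other three was 18.8 ± 1.02 percentage points (SD, n = 3; exact sign-flip p = 0.25). With 3 Mb windows the contrasts were 21.0 regions per Mb and 10.6 points. The density contrast was 19.3 among the higher-scoring 50%, where every density is lower.

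Within the windows, coverage changed with distance from the centromeric end, and X ran the opposite way to the other arms. On 2L the inner 1 Mb was covered over 5.78% ± 0.283 and the outer over 17.9% ± 1.38. The highest 250 kb bin on 2L was the outermost, at 33.7%, 42.2% and 42.7% in replicates 1, 2 and 3. On 3L the inner 1 Mb was covered over 1.68% ± 0.0664 and the outer over 6.30% ± 0.674. On 3R the shares were 22.9% ± 1.60 in the inner and 30.8% ± 2.21 in the outer 1 Mb. On X the inner 1 Mb, 11.6% ± 2.13, exceeded the outer, 5.62% ± 1.84 (SD, n = 3 throughout). The X excess was in bases and not in number of regions. In replicates 1, 2 and 3 the inner 1 Mb of X held 19, 23 and 17 regions and the outer 19, 28 and 18. For covered share, inner minus outer was positive on X in 3 of 3 replicates and negative on 2L, 3L and 3R in 3 of 3. The exact sign-flip p was 0.25 on each arm. This split was chosen after the values were seen.

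**Figure D2:**
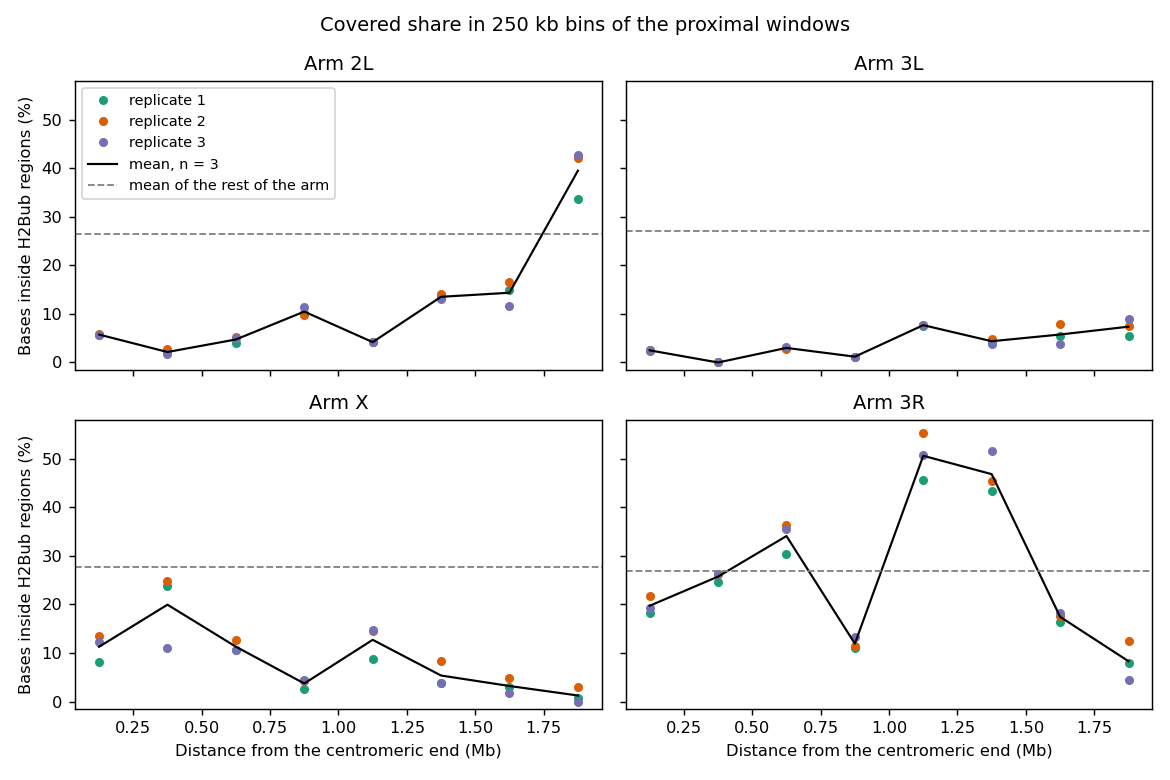
Bases inside H2Bub regions in 250 kb bins against distance from the centromeric end of the assembled arm, with 1 point per replicate, the mean (n = 3) as a line and the rest of the arm as a dashed line. On 3R the bins from 0.5 to 0.75 Mb and from 1.0 to 1.5 Mb stand above the dashed line in their mean, on 2L only the outermost bin does, and on 3L and X none does.

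The most covered part of the 3R window lay between 1.0 and 1.5 Mb from the end. The 250 kb bins there were covered over 50.6% ± 4.82 and 46.9% ± 4.25, and the bins on either side over 11.9% ± 1.15 and 17.5% ± 0.966 (SD, n = 3 each). The outermost bin of that window was covered over 8.01%, 12.5% and 4.38% in replicates 1, 2 and 3. On 3L the bin from 250 to 500 kb held 0 regions in all 4 lists. On chromosome 4 the 100 kb bin from 500001 to 600000 was covered over 46.3%, 51.6% and 48.7%. The other bins of chromosome 4 had means of at most 24.7%, and the last, from 1300001 to 1351857, held 0 regions in every list.

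Islands were formed by joining regions with under 5 kb of uncalled sequence between them. In the windows islands were both rarer and smaller than on the distal arms. The windows held 14.1, 14.9 and 13.0 islands per Mb, against 20.1, 19.6 and 19.5 on the distal arms. Each island held 1.93 ± 0.0804 regions in the windows and 2.21 ± 0.0718 on the distal arms (SD, n = 3 each). The difference, -0.289 ± 0.0127, was -0.0971 when regions under 2 kb apart were joined and -0.653 at 10 kb. Regions alone in their island were 29.7% ± 2.39 in the windows and 21.7% ± 1.45 on the distal arms.

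Islands differed between the sequences. The 3R window held 22.8 ± 2.08 islands per Mb with 2.23 ± 0.249 regions in each, so it did not share the low values of the pooled windows. Chromosome 4 held 22.2 ± 0.740 islands per Mb, against 19.7 ± 0.351 on the distal arms, with 1.86 ± 0.107 regions in each. The Het scaffolds held 2.39 ± 0.255 islands per Mb with 1.47 ± 0.0855 regions each (SD, n = 3 throughout). The 2L window was the one with most lone regions, 43.1%, 42.0% and 42.0%, against 27.8%, 26.2% and 18.4% in the 3R window.

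**Figure D3:**
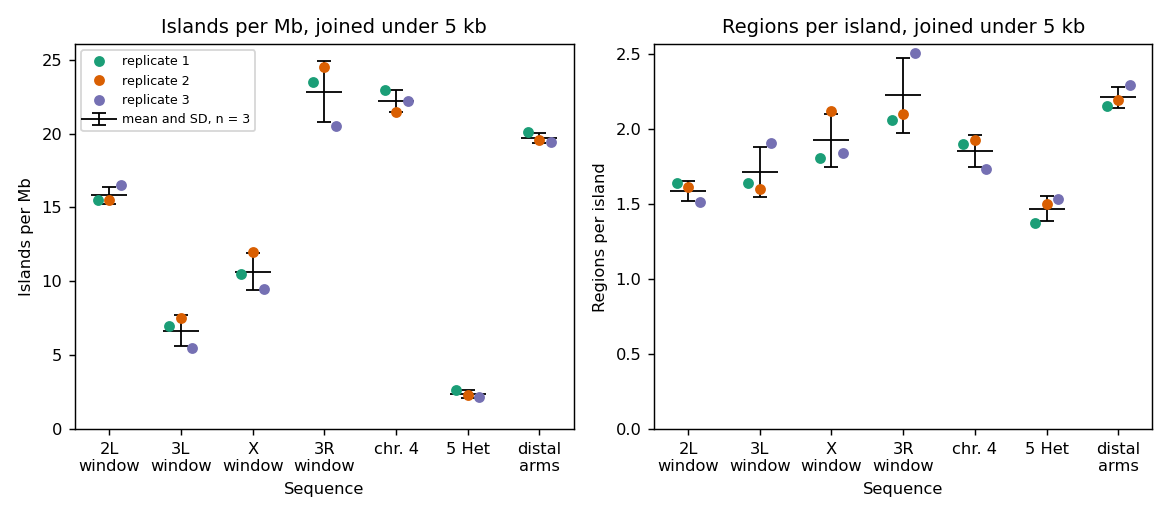
Islands per Mb (left) and regions per island (right) when regions under 5 kb apart are joined, with 1 point per replicate and the mean with its SD (n = 3). Chromosome 4 and the 3R window have at least as many islands per Mb as the distal arms, and the 5 Het scaffolds have the fewest islands per Mb and the lowest mean number of regions per island.

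In the combined list the largest island of the windows was on 3R from 998500 to 1150311, 152 kb long with 13 combined regions. No replicate joined it whole, as the longest 3R window islands in replicates 1, 2 and 3 were 67.8, 86.8 and 64.8 kb. Replicates 1, 2 and 3 covered 69.3%, 76.2% and 70.4% of it with 17, 13 and 14 regions, and 11 of its 13 combined regions were overlapped in all 3. Elsewhere the islands with most regions were much shorter. On X the island from 21206393 to 21259433, 53.0 kb long, held 12 combined regions, of which 5 were overlapped in all 3 replicates. It too was whole in no replicate, where the longest X window islands were 37.5, 37.6 and 36.7 kb. On 2L, 3 islands held 4 regions each, and the longest, from 21286581 to 21319860, was covered over 70.3%, 80.1% and 42.1%. On 3L the island from 23310331 to 23334995 held 4 regions and was covered over 76.8%, 78.8% and 77.6%. On chromosome 4 the island from 138434 to 161995 held 6 regions and was covered over 34.5%, 54.8% and 44.8%.

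Between islands lay long uncalled stretches. The median gap between neighbouring regions was 5458.5 ± 656 bp in the windows and 3944 ± 276 bp on the distal arms (SD, n = 3 each). The difference was 1514.5 ± 410.0 bp, positive in 3 of 3 replicates (exact sign-flip p = 0.25). It was 4073.5 bp without 3R and 600 bp in the combined list. On 2L the median gap was 9985, 10202 and 10238 bp, and on 3L 21551.5, 20980 and 5464.5 bp. Replicate 3, with 21 regions, stood apart on 3L. On X it was 5385, 3178.5 and 6353.5 bp, which differed from the rest of X by 1041 ± 1745 bp (SD, n = 3), positive in 2 of 3 replicates (exact sign-flip p = 0.5). On 3R it was 4448.5, 4574 and 3710 bp, a difference of 485 ± 269.5 bp from the rest of 3R (SD, n = 3), positive in 3 of 3 (exact sign-flip p = 0.25). On the Het scaffolds the medians were 21314, 12736 and 9439.5 bp. Gaps of 50 kb or more were 13.7% of the gaps between combined regions in the windows, 9.68% on chromosome 4, 34.6% on the Het scaffolds and 7.96% on the distal arms.

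The longest stretch without a combined region in each window was 500.1 kb on 3L (24029590 to 24529702), 344 kb on X (21501872 to 21845924), 227 kb on 2L (21345924 to 21572807) and 150 kb on 3R (313048 to 463182). On chromosome 4 it was the 114 kb from 1237480 to the right end, and the longest between 2 regions was 93.8 kb, from 234198 to 327963. No replicate covered more than 0.132% of any of these 4 window stretches, nor more than 0.0621% of the stretch at the end of chromosome 4.

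Scores in the windows lay close to those on the distal arms, and slightly below them in the median. The score is the authors' own value for each region, no source used here defines it, and it was compared within a list only. The median score was 0.665, 0.762 and 0.757 in the windows of replicates 1, 2 and 3, against 0.677, 0.820 and 0.791 on the distal arms. Windows minus distal arms was -0.0344 ± 0.0226 (SD, n = 3), negative in 3 of 3 replicates. For each window region, the median score of distal regions of its width class, of 10 classes, was subtracted. The mean of these differences was 0.0304 ± 0.0162, positive in 3 of 3 (SD, n = 3). A mean taken against medians need not be 0 where nothing differs. The distal parts of 2L, 3L, X and 3R, set against all distal arms alike, averaged 0.00315, 0.0354, 0.0979 and 0.0140. The positive sign therefore does not show higher window scores at equal width. The exact sign-flip p, taken against 0, was 0.25 for both.

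The arms differed in this measure. With each window set against the rest of its own arm at equal width, 2L regions averaged 0.113 ± 0.0395. The 3R regions averaged 0.0468 ± 0.00481, and both arms were positive in 3 of 3 replicates. On X the average was -0.0661 ± 0.0176, negative in 3 of 3 replicates, and on 3L -0.00135 ± 0.0428 (SD, n = 3 throughout). What the rest of each arm averages against itself was not computed, so these signs alone do not show higher or lower scores. Of the 2L window regions, 13.7%, 14.0% and 14.0% scored above the 90th percentile of their list. On the rest of 2L these shares were 7.09%, 7.47% and 8.93%. In the 3L window 0 regions did so in any of the 4 lists. In the X window 1 region did so in each replicate list.

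The width-matched score differences of chromosome 4 and the Het scaffolds did not have 1 sign in all replicates. As 0 is not their value without a difference, no direction is read from these signs. On chromosome 4 the width-matched difference was -0.00250, 0.0155 and -0.0680 in replicates 1, 2 and 3, and the mean turned to 0.00650 without replicate 3. On the Het scaffolds it was 0.0619, 0.0523 and -0.0289, with a mean of 0.0284 ± 0.0499. Among the higher-scoring 50% of regions that mean was 0.298 ± 0.0525, and from 2 kb it was 0.0778 ± 0.0268 (SD, n = 3), each positive in 3 of 3 replicates (exact sign-flip p = 0.25). Unmatched, the Het median score was 0.539, 0.625 and 0.522, and the difference from the distal arms was -0.201 ± 0.0653 (SD, n = 3; exact sign-flip p = 0.25). Among the higher-scoring 50% of regions that difference turned to 0.179. That subset is chosen on the score itself, so it cannot test whether Het regions score higher. Only 6, 5 and 4 Het regions scored above their list's median in replicates 1, 2 and 3. The 0.298 and 0.179 describe few regions kept for their scores.

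**Figure D4:**
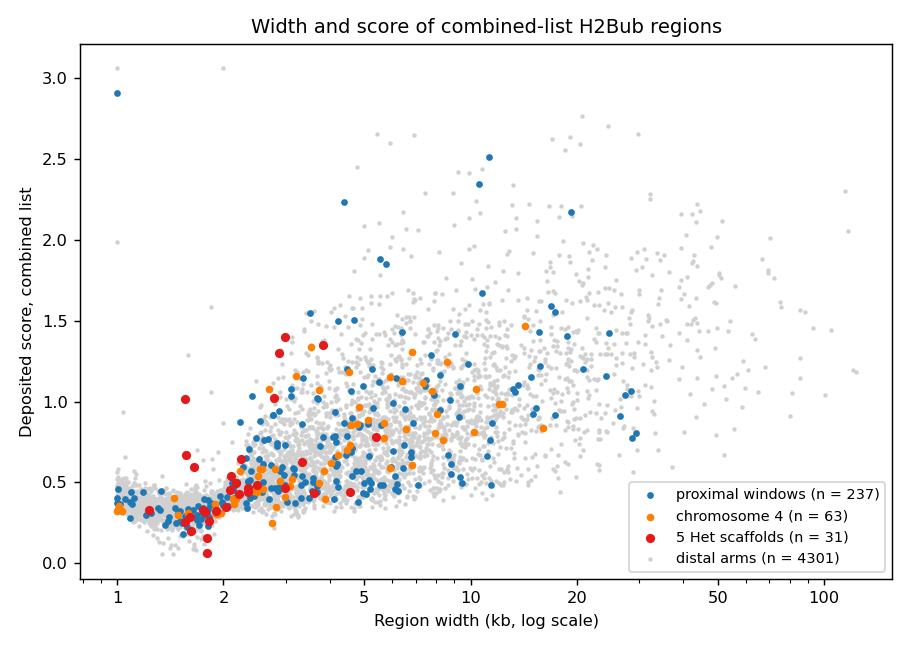
Width (log scale) and deposited score of each combined-list region, with the windows, chromosome 4 and the Het scaffolds in colour over the distal arms in grey. Most members lie within the grey cloud. The 1001 bp X region at a score of 2.91 lies far above most regions of its width, and 3 regions of 3LHet lie between 1.30 and 1.40 at widths up to 3819 bp.

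The highest-scoring window regions were found in every replicate on 2L, 3L and 3R, and in none on X. On 3R the region from 903069 to 914306 (11238 bp) scored 2.51, and the replicates covered 90.6%, 97.9% and 94.5% of it. On 2L the region from 21828072 to 21838665 (10594 bp) scored 2.35 and was covered over 98.1%, 97.7% and 99.9%. It stood alone, since the next 180.4 kb towards the centromere held no combined region. On 3L the highest score was 1.15, at 23085919 to 23089285 (3367 bp), with 91.5%, 98.7% and 94.8% covered. On chromosome 4 it was 1.47, at 565511 to 579742 (14232 bp), with 96.9%, 94.4% and 91.0% covered.

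The X region from 22399249 to 22400249 scored 2.91, the highest of all members, and was overlapped by 0 replicate regions. It was 1001 bp wide, the narrowest width in the combined list, while the narrowest X window region in a replicate list was 1309 bp. It lay 23.1 kb from the end of the assembled arm.

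The single widest region of each window was called whole in the replicates on 2L and 3L and in pieces on X and 3R. On 2L the widest, from 21022935 to 21042191 (19257 bp), was 1 region in each replicate, covering 98.6%, 99.8% and 99.0% of it. On 3L the widest, from 23321362 to 23334995 (13634 bp), was also 1 region in each, covering 93.5%, 99.0% and 95.9%. On 3R the widest, from 735981 to 764332 (28352 bp), was split into 3, 4 and 4 regions that covered 81.2%, 83.8% and 91.1%. On X the widest, from 22228187 to 22257566 (29380 bp), was split into 5, 3 and 4 regions that covered 58.4%, 97.8% and 88.0%. The windows held 8 combined regions of at least 20 kb, 5 on 3R and 3 on X. Other wide 3R regions were called nearly whole. The one from 484881 to 509549 (24669 bp) was 1 region in each replicate and was covered over 97.6%, 99.8% and 99.3%, and the one from 998500 to 1024890 (26391 bp) was covered over 99.1%, 94.0% and 99.6%.

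One stretch of X was called by replicates 1 and 2 and largely missed by replicate 3. Replicates 1 and 2 covered 92.3% and 98.2% of the region from 21985095 to 22013672 (28578 bp, score 0.777), and replicate 3 covered 8.64%. Its neighbours from 22013758 to 22023114 and from 22027677 to 22035092 showed the same order. The first was covered over 91.9%, 95.8% and 15.4%, and the second over 93.2%, 97.8% and 36.3%. These 3 regions form 1 island, picked after its values were seen. They lie in the bin from 250 to 500 kb, whose share was 23.9%, 24.9% and 11.0%.

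Replicate support over all members was near that of the whole list, and X was where it was low. Of the 331 members, 211 (63.7%) were overlapped by at least 1 bp in all 3 replicates, where 63.1% of all combined regions were. The windows of 2L, 3R, 3L and X had 41 of 48 (85.4%), 74 of 112 (66.1%), 15 of 25 (60.0%) and 20 of 52 (38.5%). Chromosome 4 had 44 of 63 (69.8%) and the Het scaffolds 17 of 31 (54.8%). Overlapped by no replicate were 9 of 52 X window regions (17.3%) and 1 of 48 2L window regions (2.08%), against 499 of 4301 on the distal arms (11.6%).

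A long region has more bases on which to be overlapped, so regions were also compared at like width. Among combined regions of 2 to 5 kb, 10 of 25 in the X window (40.0%) were overlapped in all 3 replicates, against 246 of 392 on the rest of X (62.8%). In the 2L window the count was 21 of 22 (95.5%), against 251 of 372 on the rest of 2L (67.5%). On the Het scaffolds it was 14 of 17 (82.4%), against 1091 of 1580 on the distal arms (69.1%). Under 2 kb, 4 of 79 members (5.06%) were overlapped in all 3, against 71 of 1128 on the distal arms (6.29%). Those members included 13 Het regions, of which 2 (15.4%) were overlapped in all 3. From 5 to 20 kb it was 84 of 88 members (95.5%), against 1272 of 1329 on the distal arms (95.7%), and from 20 kb all 8 members, against all 264.

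Measured by the midpoint base, which does not favour wide regions in the same way, support was again lower on X. In the X window 63.2%, 37.3% and 65.7% of the regions of replicates 1, 2 and 3 had their midpoint inside regions of both other replicates, against 82.2%, 66.0% and 70.2% on the rest of X. The difference was -17.4 ± 12.2 percentage points (SD, n = 3), negative in 3 of 3 (exact sign-flip p = 0.25). Over the 4 windows together it was -0.706 ± 5.66 (SD, n = 3; exact sign-flip p = 1), within the spread between replicates.

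Shared bases were fewest on X among the windows. Of the bases called in any replicate in the X window, 40.1% were called in all 3, against 69.3% on the rest of X. The shares were 73.1% in the 2L window, 70.6% in the 3R window, 59.6% in the 3L window, 70.6% on chromosome 4, 58.4% on the Het scaffolds and 72.1% on the distal arms. The base-pair Jaccard index, shared bases over bases in either list, in the X window was 0.642 between replicates 1 and 2, 0.480 between 1 and 3, and 0.575 between 2 and 3. The same pairs gave 0.794, 0.760 and 0.800 on the rest of X. Replicate 2 had 51 X window regions, against 38 and 35 in replicates 1 and 3.

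**Figure D5:**
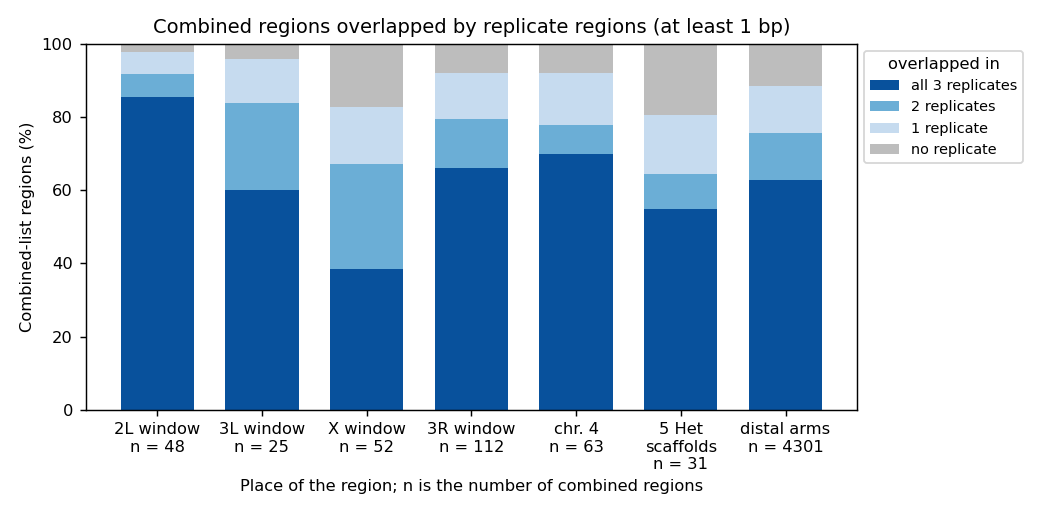
Share of combined-list regions overlapped by at least 1 bp in 3, 2, 1 or 0 replicates, by place, with the number of combined regions under each bar. The 2L window has the highest share in all 3 (85.4%) and the X window the lowest (38.5%), with the distal arms at 62.7%.

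On the Het scaffolds the few regions were separated by long uncalled stretches. On 3RHet, which is 2.52 Mb long, the first 1806 kb held 0 regions in all 4 lists. Its 6 combined regions lay between 1805869 and 2481856, and 5 of them were overlapped in all 3 replicates. The widest and highest-scoring, from 1819301 to 1824697 (5397 bp, score 0.782), was covered over 90.8%, 92.9% and 88.4%. It ended an island of 3 regions that starts at 1805869, each overlapped in all 3 replicates.

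On 3LHet, 15 combined regions lay between 410177 and 2415938, and 8 were overlapped in all 3 replicates. The widest, from 593841 to 597659, was 3819 bp and scored 1.35. The highest-scoring, from 2242764 to 2245753, was 2990 bp and scored 1.40, and the replicates covered 91.8%, 95.4% and 94.2% of it. That score exceeded those of 92.0% of all combined regions, from a region narrower than the median combined region, 3451 bp. In the combined list, uncalled stretches of 682 and 793 kb ran from 710345 to 1392712 and from 1396766 to 2189505. The 2 regions between them were overlapped by no replicate region, and the longest gap on 3LHet was 1532.5, 1479.1 and 1532.5 kb in the lists of replicates 1, 2 and 3.

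The smaller scaffolds held 10 combined regions in all. On 2LHet the regions from 34229 to 36442 and from 167094 to 169873 were overlapped in all 3 replicates. The one at 167094 was the widest there (2780 bp) and the highest-scoring, 1.02, with 93.2%, 99.1% and 93.6% covered. The third, from 31306 to 33338, was absent from replicate 1 and covered over 99.0% and 75.1% in replicates 2 and 3. On XHet 2 of 4 regions were overlapped in all 3 replicates, and the widest, from 61161 to 63642 (2482 bp, score 0.485), was covered over 68.1%, 95.2% and 85.3%.

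YHet had no region found in more than 1 replicate. The region from 300391 to 301946 scored 1.01 and was covered over 89.9% in replicate 1, and replicates 2 and 3 had no region there. Those from 305797 to 307442 and from 343174 to 344744 were overlapped by no replicate region. The 3 regions were 1556, 1646 and 1571 bp wide. The labels give no sex for the embryos.

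At the 2 Mb line itself the nearest regions on either side were as follows, with no test. On 2L the inner was 19257 bp with a score of 2.17 and the outer 40867 bp with 1.38. On 3L they were 3336 bp with 0.858 and 1400 bp with 0.433. The X pair was 2477 bp with 0.776 and 4815 bp with 1.02, and the 3R pair 2764 bp with 0.918 and 8330 bp with 0.561. The inner regions of 3L and X lay 118 and 144 kb inside the line, and those of 2L and 3R 21.0 and 17.8 kb.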

How the data were processed

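H2Bub ChIP was sequenced in 3 ChIP samples with 3 inputs. The submitters' processing notes name Bowtie 0.12.7, a short-read aligner. The authors deposited a list of significantly enriched regions for each ChIP sample and a combined one for the series, each region with a deposited score. Positions are on FlyBase release 5, per the file headers. No source used here names the caller, its threshold, the score's definition or the libraries behind the combined list. The narrowest region was 1301 bp in the replicate lists and 1001 bp in the combined list. Python 3.11.15 and numpy 2.4.6 were used.

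Groups and replicate numbers came from the sample titles. No list for the inputs was analysed here. A region belongs to the place that holds its midpoint. Each measure was computed within 1 list, as member place minus distal arms, and tested over 3 replicates by permuting signs (exact, two-sided), which cannot go below 0.25. Differences of windows from their own arm and of inner from outer parts are outside the 24 adjusted together and carry unadjusted p-values. Width-matched scores used 10 classes cut on distal regions and averaged each region's score minus the distal median of its class. A group no different from the distal regions need not average 0 in this measure. Regions named are the widest and highest-scoring of each sequence, the islands with most regions, the longest uncalled stretches, those beside the 2 Mb line and all on scaffolds with 3 or fewer; others were picked with their values in view. The members and lists were chosen with earlier results of these data known. Scripts were tested on simulated data. For width-matched scores the tolerance was wider than the values of the pooled windows, 3R and the Het scaffolds, so those were not checked. Alternatives were the higher-scoring 50% of regions, a minimum width of 2 kb, merging under 1 kb, windows of 1 and 3 Mb, windows without 3R, the combined list, 50% reciprocal overlap, other island distances and leaving out each replicate. No genome or annotation of release 5 was used, so no gene is named and no sequence shown. Arm 2R and its scaffold were not analysed here.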

Additional observations from a re-analysis of the deposited data

Results flagged for a closer look

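Some windows moved in opposite directions against the rest of their own arm, each in 3 of 3 replicates. For regions per Mb, 3R differed by 8.04, and 2L, 3L and X by -17.2, -32.3 and -25.8. The contrast of 3R with the other three had an exact sign-flip p of 0.25, the smallest possible. For median score, 3R differed by 0.0138, and 3L and X by -0.0395 and -0.0865. The contrast of 3R with the mean of 2L, 3L and X was 0.0530 ± 0.0251 (SD, n = 3; exact sign-flip p = 0.25), and it turned to -0.0235 with 1 Mb windows. For width-matched score, 2L and 3R averaged 0.113 and 0.0468, and X -0.0661. This measure need not be 0 without a difference, so its signs alone show no direction. That difference between arms was not tested.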

How the results depend on the processing

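Of 222 alternative values, 24 turned their direction, and others moved by more than the replicate spread without turning. The exact sign-flip permutation of 3 replicates cannot go below 0.25, so these counts concern direction and size only, and the cause of a turn was not tested. The higher-scoring 50% is chosen on score, so score differences within it do not check those over all regions. For covered share, density, median width, median score, width-matched score and median gap, windows minus distal arms kept its sign under all 11 alternatives each. Width-matched scores need not be 0 without a difference, so a kept or turned sign of theirs shows no direction. Covered share ranged from -18.9 to -10.7 and density from -24.6 to -9.48, the last among the higher-scoring 50%, where every density is lower. Median width ranged from -1051 to -157 bp and median gap from 600 to 8937 bp. The 3R contrast in median score turned to -0.0235 with 1 Mb windows. Window support turned to 1.78 with regions of at least 2 kb, 2.17 with 1 Mb windows and 5.06 with 50% reciprocal overlap, and ranged from -3.89 to 1.51 when each replicate was left out. For chromosome 4, density turned to 1.03 with regions of at least 2 kb, 1.53 after merging and 1.02 on the combined list cut at 1301 bp, the narrowest replicate region, an alternative chosen after seeing the data. Its median width turned to -659 bp with the higher-scoring 50%, -431 bp from 2 kb, -735 bp after merging and -115.5 bp on those combined regions. Its median score turned to 0.0422 on the combined list and 0.0300 on those combined regions, and ranged from -0.0207 to 0.00343 with a replicate left out. Its width-matched score turned to 0.00970 with the higher-scoring 50%, 0.0491 on the combined list and 0.0560 on those combined regions, and ranged from -0.0353 to 0.00650 with a replicate left out. Its support turned to -2.41 with the higher-scoring 50%. For the Het scaffolds, median score turned to 0.179 with the higher-scoring 50%, support to -18.4 from 2 kb, and support ranged from -0.925 to 10.01 with a replicate left out. When 50% of a member's bases had to be covered in each replicate, 57.1% of members met this in all 3, where 56.5% of all combined regions did. Regions per island, windows minus distal arms, was -0.289 ± 0.0127 at 5 kb, -0.0971 at 2 kb and -0.653 at 10 kb. No paired analysis was possible because no input list was analysed here, so the numbers that a ChIP sample and its input share could not be used as a block; places were compared within each replicate list. Unknown depth limits every uncalled stretch: no bound on its signal can be given.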
